A study of Rattus norvegicus with 156 samples.

Results

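The L6 and L5 dorsal root ganglia (DRG) of the operated side were compared in how far they responded to tight ligation of their own spinal nerves. The members were chosen by their labels: all ipsilateral L6 and L5 DRG samples, 10 of the 52 RNA samples of the series, each hybridised to the 3 arrays (A, B and C) of the Affymetrix rat U34 set, which carry different probe sets. The ligated groups were SNL (L5 and L6 spinal nerves ligated, vehicle) and SNL+ GPN (the same ligation, gabapentin). The unligated groups were Naive (no surgery, vehicle), Naive+ GPN (no surgery, gabapentin) and Sham (spinal nerves exposed and left unligated, vehicle). Gabapentin, a drug against neuropathic pain, was given into the peritoneum at 100 mg/kg once a day for 7 days, and all rats were killed 19 to 21 days after surgery. The rats of each group and tissue were split into 2 pools, and each sample here is the first of them, 4 to 6 rats, so the second pool gives no value here. Only SNL rats with a lowered paw withdrawal threshold 12 to 14 days after surgery were used. The labels give no strain, sex or age. With 1 pool per treatment and level, SNL and SNL+ GPN stood as the 2 ligated pools and Naive, Naive+ GPN and Sham as the 3 unligated pools, so p-values measure the spread between differently treated pools. Both ligated groups had surgery, and of the unligated groups only Sham did. For each treatment the L6 value minus the L5 value was taken on the log2 scale, and the 2 ligated values were set against the 3 unligated values.

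A DRG holds the cell bodies of the sensory neurons of one spinal segment, wrapped by satellite glia and mixed with Schwann cells, blood vessels and macrophages. In this model the nerves of both ganglia are tied close to the spine, so most axons of their neurons are cut off from their targets. Axotomised sensory neurons are known to lower peptides of the intact state, such as substance P and calcitonin gene-related peptide, to raise others such as galanin and vasoactive intestinal peptide, and to switch on growth-associated transcription factors such as Atf3. In the rat, L5 supplies much of the hindlimb, and L6 also supplies pelvic organs.

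The deposited signals were brought to a common distribution over the 10 arrays of each set, because the brightest array's trimmed mean was 2.62 times that of the dimmest for set A, 3.95 times for set B and 2.58 times for set C. On set A the SNL and Sham pools of L6 were dim, with deposited medians of 16 and 20.5, against 31.2 to 52.9 in the other 8 samples. On set C the same pools had 21.1 and 14.5, against 27 to 38.2 in the others. On set B both ligated L6 pools were dim (13.7 in SNL and 14.1 in SNL+ GPN), as was Sham L6 (8.1), against 18.1 to 35.3 in the others. Signals below are these normalized values, and changes are differences of log2(signal + pseudocount), which understate the change of weak genes. Of 26379 probe sets, 17832 passed the filter on weak signals and were tested. Neuronal markers were strong in all 10 samples: the mean log2 signal of the 23 general neuronal markers tested was 8.60 and 8.70 in ligated L6 pools, 9.30 to 9.48 in unligated L6 pools, 8.66 and 8.80 in ligated L5 pools, and 9.25 to 9.30 in unligated L5 pools. A lower signal in a ligated pool cannot be told apart from fewer cells of that type. The ratio of the 3' to the 5' Gapdh probe set, a sign of RNA integrity, was 1.08 and 1.1 in ligated and 1.21 to 1.49 in unligated L6 pools, and 1.01 and 1.05 in ligated and 1.13 to 1.26 in unligated L5 pools. Its part in the results was not tested.

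Both ganglia changed broadly after ligation, and among probe sets that rose the median change was slightly larger at L6. The response shared by both levels was tested on the mean of L6 and L5 in each treatment. In that test 1526 probe sets were higher after ligation (8.56% of those tested) and 1673 were lower (9.38%) at an adjusted p below 0.05 (limma, two-sided, Benjamini-Hochberg over all probe sets). The count of 3199 was 1060 without the SNL pair, and it was 643 with the deposited scaling, of which 24.3% were higher, against 47.7%. Among the higher ones the median change was 0.88 at L6 and 0.71 at L5 on the log2 scale. The L6 change exceeded the L5 change in 1069 of these 1526 (70.1%), by a median of 0.17, and the excess was 0.161 in the SNL pool and 0.163 in the SNL+ GPN pool. Among the lower ones the medians were -0.79 at L6 and -0.75 at L5, and L6 had the larger change in 947 of 1673 (56.6%), by a median of 0.06, with 0.094 in the SNL pool and 0.020 in the SNL+ GPN pool. Both ligated pools were set against the same mean of the unligated pairs, so their excesses are not independent of each other. Over all 8979 genes tested, with 1 probe set each, 847 were higher and 906 lower in the shared response, the medians were 0.01 at L6 and -0.01 at L5, and the absolute change was larger at L6 in 53.6%. These values are the background for the gene lists below. L6 values were more spread out than L5 values, and taking probe sets by the mean of both levels favours those whose noisier L6 change came out large, so the excess at L6 in these sets is a description and was not tested. The excess among the lower ones turned to -0.05 when arrays were scaled to equal medians, a scaling that moved the median difference of all probe sets to 0.11.

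**Figure D1:**
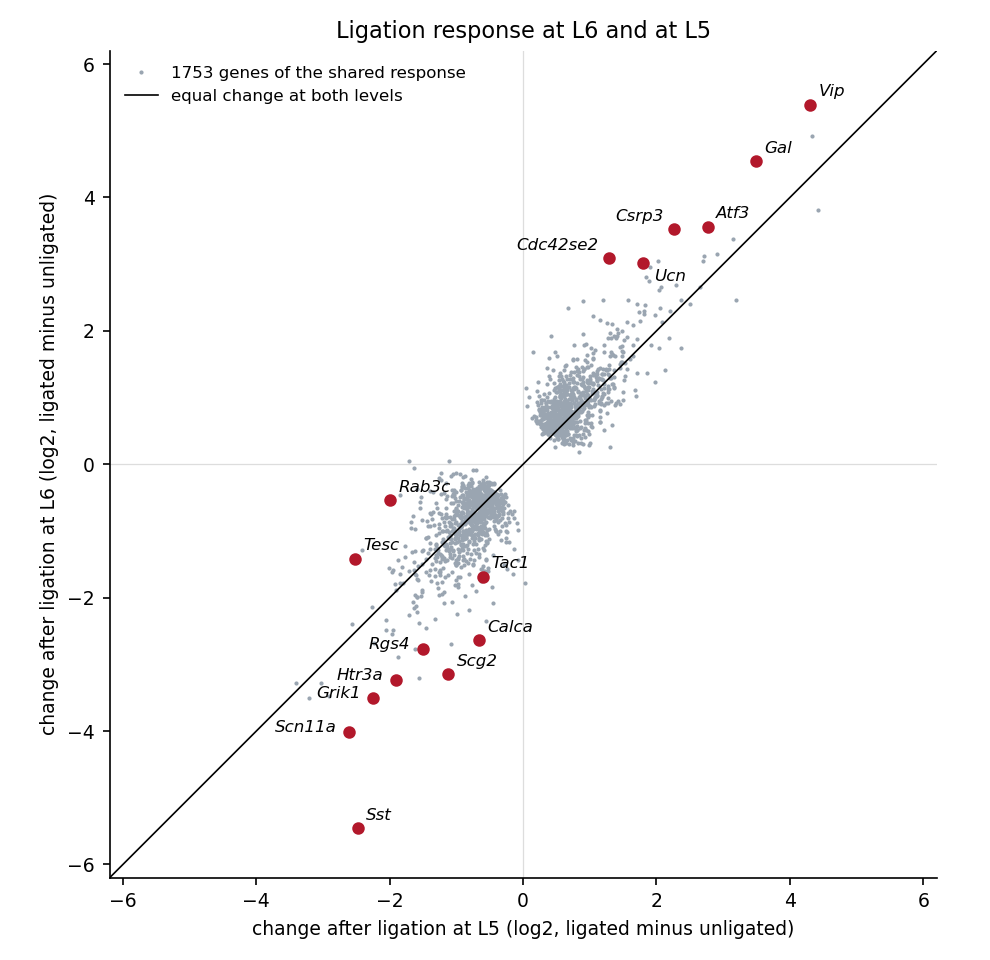
Change after ligation at L6 (y axis) against L5 (x axis), both as log2 of ligated over unligated pools, for the 847 higher and 906 lower genes of the shared response, 1 probe set a gene. Named genes are in red and the line marks equal change; Sst, Scg2 and Calca lie well below it, Vip, Gal and Csrp3 lie above it, and of the genes in red Rab3c and Tesc had the larger fall at L5.

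Tested at each level alone, fewer probe sets passed at L6 than at L5, although the median changes of the shared response were not smaller at L6. At L6 723 probe sets were higher (4.05%) and 686 were lower (3.85%). At L5 1118 were higher (6.27%) and 1478 were lower (8.29%). The pools of L6 were more spread out within their groups: the median residual SD of a probe set was 0.247 at L6 and 0.187 at L5, and the median standard error of its change was 0.236 and 0.179. The count at each level therefore does not measure the size of the response.

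No probe set passed the test of the difference itself, ligated minus unligated in L6 minus L5 (0% called by limma, with a lowest adjusted p of 0.266). At an unadjusted p below 0.05 there were 1367, or 7.67%. In 4592 probe sets (25.8%) the ligated pairs did not overlap the unligated pairs. L6 was below L5 in both ligated pairs and above it in all 3 unligated pairs in 604 probe sets (3.39%), and the reverse held in 770 (4.32%). The leading genes below are therefore given as values that did not pass the threshold over all probe sets. The vehicle pools (SNL against Naive and Sham) and the gabapentin pools (SNL+ GPN against Naive+ GPN) share no sample, and over the 17832 probe sets their estimates of the difference correlated at r = 0.13, against 0.53 for the change at L6 and 0.58 for the change at L5. Probe sets are not independent replicates, so these correlations are a description.

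Sst, which encodes the inhibitory peptide somatostatin of a class of small sensory neurons, had the largest fall at L6 among the genes named here. Its signal was 6.33 in SNL and 10.99 in SNL+ GPN at L6, against 614, 678 and 568 in Naive, Naive+ GPN and Sham. At L5 it was 62.75 in SNL and 67.3 in SNL+ GPN, against 388, 409.8 and 367 in the same unligated pools. Ligated and unligated pools were far apart at both levels, and the ligated L6 pools held the weakest signals of all 10 samples. On the log2 scale Sst fell by 5.45 at L6 (43.7-fold, adjusted p = 6.43e-05, limma) and by 2.48 at L5 (5.56-fold, adjusted p = 0.000322). The difference was -2.98 (95% interval -3.76 to -2.19, unadjusted p = 3.81e-05, adjusted p = 0.266). A second Sst probe set gave 7.48 and 11.6 in ligated L6 pools and 11.9 and 6.92 in ligated L5 pools, and its difference was -0.54 (unadjusted p = 0.174). Both probe sets were low after ligation at both levels, and only the brighter one separated ligated L6 from ligated L5. The unligated values of the second probe set are not given here, so no fall is read from it.

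Scg2, which encodes secretogranin II, a protein of peptide-storing granules, had the smallest unadjusted p of the difference among named genes. Its signal was 51.5 and 52.9 in the SNL and SNL+ GPN pools of L6, against 458, 544 and 520.05 in Naive, Naive+ GPN and Sham. At L5 it was 115 and 134 in SNL and SNL+ GPN, against 266, 329 and 244 in the unligated pools. In intact rats L6 held more Scg2 signal than L5 in all 3 pools, and after ligation it held less in both pools. Scg2 fell by 3.14 at L6 (8.83-fold, adjusted p = 0.000154, limma) and by 1.12 at L5 (2.18-fold, adjusted p = 0.00566). The difference was -2.02 (95% interval -2.53 to -1.51, unadjusted p = 2.72e-05, adjusted p = 0.266). It was -2.00 between the vehicle pools alone and -1.97 between the gabapentin pools alone.

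**Figure D2:**
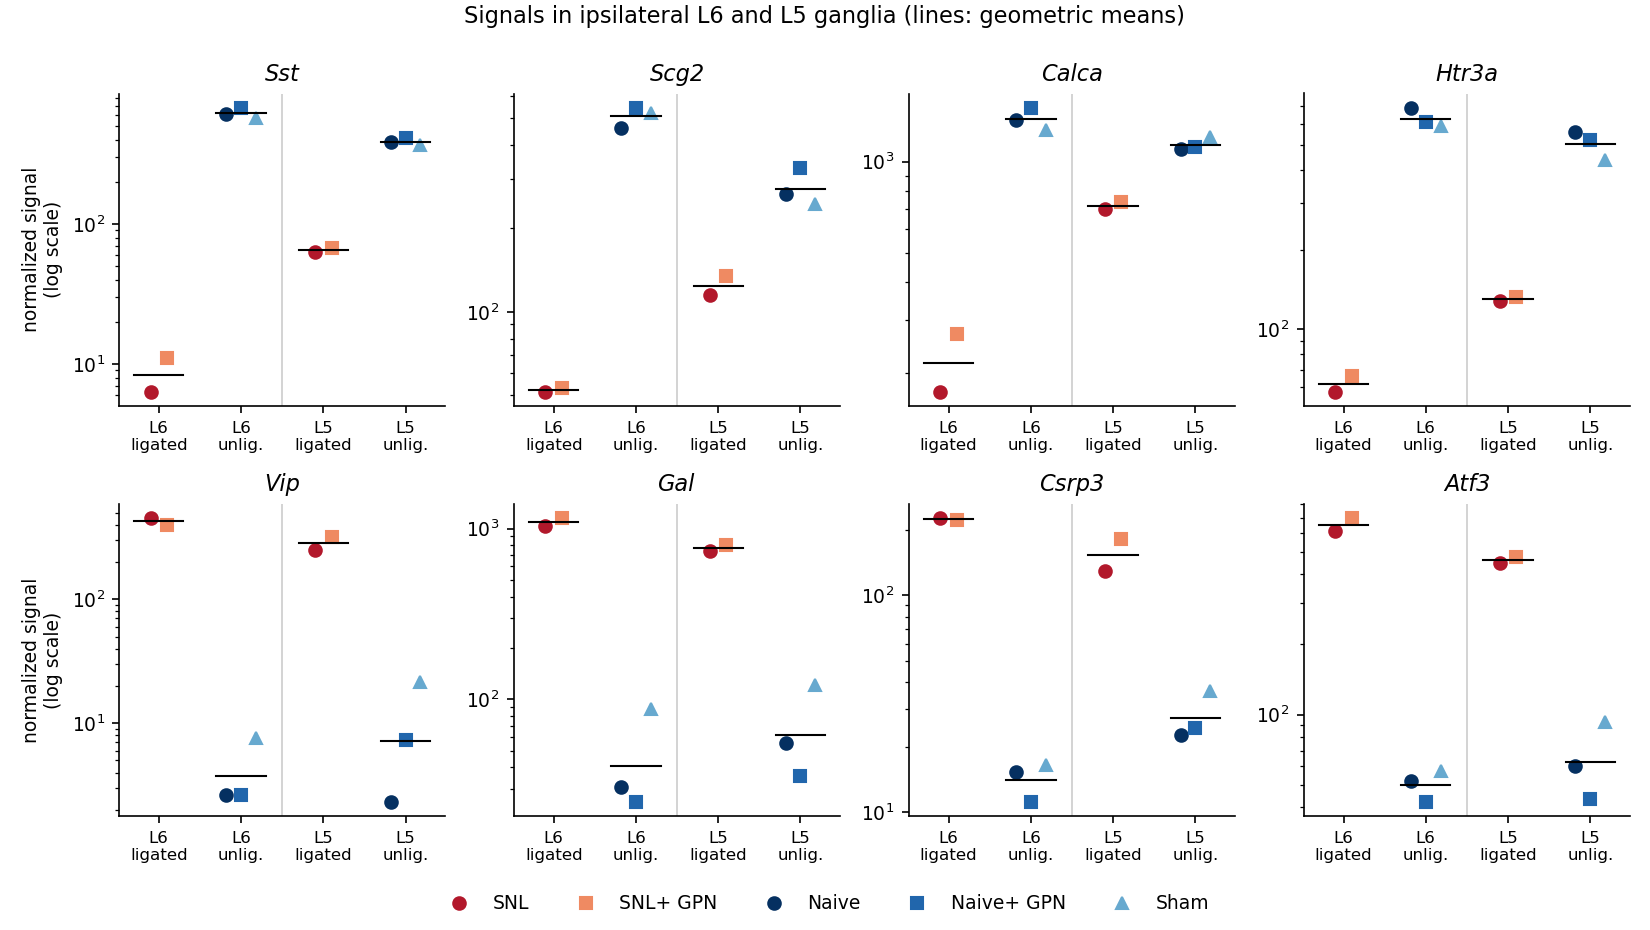
Normalized signal (log scale) of 8 genes in each of the 10 samples: L6 left and L5 right in each panel, ligated pools (red and orange) left of unligated pools (blues), lines at the geometric mean. In the upper row the ligated L6 pools are the lowest samples, and in the lower row they are the highest.

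Calca, which encodes calcitonin gene-related peptide, was abundant in every intact pool. It stood at 174 and 270.45 in SNL and SNL+ GPN at L6, against 1372, 1507 and 1276 in Naive, Naive+ GPN and Sham. At L5 it stood at 697 and 736 in the ligated pools, against 1099, 1114 and 1206 in the unligated ones. Both ligated L6 pools lay far below either ligated L5 pool, while the unligated pools of both levels were close to each other. The fall was 2.64 at L6 (6.23-fold, adjusted p = 0.0006, limma) and 0.66 at L5 (1.59-fold, adjusted p = 0.00702). The difference was -1.97 (95% interval -2.80 to -1.15, unadjusted p = 0.000731, adjusted p = 0.523). Tac1, the substance P gene, fell by 1.69 at L6 and 0.60 at L5 (adjusted p = 0.00415 and 0.0325), with a difference of -1.09 by one probe set and -0.75 by another.

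A fit over all 10 samples with the treatment pair as a random block, in which the samples rather than the pairs give the spread, called 4 probe sets for the difference, all lower at L6 after ligation. These were Sst (adjusted p = 0.000333, limma), Scg2 (0.0066), Calca (0.0136) and 1 of the probe sets of Igf1, insulin-like growth factor 1 (-2.41, adjusted p = 0.0307), the last named after its value was seen. This Igf1 probe set is not the brightest of its gene, and the other Igf1 probe sets are not given here, so it is no call for the gene. With a pseudocount 4 times as large, Sst, Scg2 and 1 unnamed probe set passed, each at an adjusted p of 0.0248. With the filter applied in all 10 samples, Scg2 and the unnamed probe set passed at 0.024. Over all settings run the adjusted p was 0.000333 to 0.761 for Sst, 0.0066 to 0.768 for Scg2 and 0.0136 to 1 for Calca, and the differences were -3.49 to -2.12, -2.33 to -1.79 and -2.39 to -1.68, all below 0.

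The peptide list of intact sensory neurons holds Sst, Scg2, Calca and Tac1 and 12 others that were tested. Of the 16 genes, 11 fell and 1 rose in the shared response, and the median change was -1.35 at L6 and -1.03 at L5. The change was larger at L6 in 12 of 16, and 6 reached an unadjusted p below 0.05 for the difference. In 5 of 16, L6 was below L5 in both ligated pairs and above it in all 3 unligated pairs, as in 267 of the 8979 genes tested. Sst, Scg2, Calca and Tac1 are among these 5. The list was chosen with earlier results of these data known and holds genes already named for their difference, so its counts are a description. Iapp (amylin) fell by 2.67 at L6 and 2.23 at L5, and Nmb (neuromedin B) by 1.85 and 1.28. Chgb (chromogranin B) fell almost equally, by 1.34 at L6 and 1.28 at L5. Scg5, a chaperone of a prohormone convertase, was an exception with a slightly smaller fall at L6 (0.82) than at L5 (1.07). Cartpt, the precursor of CART peptide, was the member that rose: 34.3 and 33.4 in ligated L6 pools, against 8.45, 16.2 and 9.60 in unligated ones. At L5 its groups were nearer, with 15.85 and 15.5 in ligated pools and 11.6 to 13.7 in unligated ones.

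Of 9 injury-induced peptides tested, 7 rose and 1, Crh, fell in the shared response; at L6 alone 7 were higher and at L5 alone 6 were higher, with medians of 1.81 at L6 and 1.52 at L5. Vip (vasoactive intestinal peptide) stood at 453 and 398 in SNL and SNL+ GPN at L6, against 2.62, 2.62 and 7.65 in Naive, Naive+ GPN and Sham. At L5 it stood at 252 and 321 in the ligated pools, against 2.31, 7.26 and 21.7 in the unligated ones. The groups did not overlap at either level, and 3 of the 6 unligated values were below the pseudocount of 6.2, so the size of the rise has no firm lower end. On the log2(signal + pseudocount) scale Vip rose by 5.39 at L6 (adjusted p = 0.000154, limma) and by 4.30 at L5 (adjusted p = 0.00195). Its difference, which rests on those weak values too, was 1.09 (95% interval 0.26 to 1.92, unadjusted p = 0.0168, adjusted p = 0.592), and its other probe set gave 0.81.

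Gal (galanin) had 1038 and 1154 in the ligated L6 pools, against 30.65, 25.0 and 87.5 in Naive, Naive+ GPN and Sham. At L5 it had 738 and 799 in the ligated pools, against 55.3, 35.75 and 121 in the unligated pools. Its rise was 4.54 at L6 and 3.50 at L5 (adjusted p = 0.00152 and 0.00297), with a difference of 1.05 (unadjusted p = 0.00225, adjusted p = 0.523). Ucn (urocortin) rose by 3.03 at L6 and 1.80 at L5. Npy (neuropeptide Y) rose by 4.92 and 4.33. Vgf, a granule protein, rose by 1.54 at L6 and 1.47 at L5, and Adcyap1, the PACAP precursor, by 1.26 and 1.52. Crh, the corticotropin-releasing hormone gene, fell by 1.84 at L6 (adjusted p = 0.0239) and had a change of -0.47 at L5 (adjusted p = 0.207), at signals of 0.94 to 31.7.

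Promoter sequences of the leading peptide genes are shown because Scg2 and Sst, the 2 genes with the smallest p of the difference among named genes, both hold the cAMP response element TGACGTCA (its own reverse complement, so 1 search covers both strands). It is in 1.83% of the 33469 rat promoters in RefSeq of assembly GRCr8, taken from 250 bases before to 50 after each gene's start. Vip, which moved the other way, holds TGACGT, the longer part of that element, searched on both strands and counted also inside it. TGACGT is in 7.94% of all promoters. The capitals mark these motifs, 5′ to 3′ on the gene's strand:
Scg2, chr9:88256817-88257116, minus strand: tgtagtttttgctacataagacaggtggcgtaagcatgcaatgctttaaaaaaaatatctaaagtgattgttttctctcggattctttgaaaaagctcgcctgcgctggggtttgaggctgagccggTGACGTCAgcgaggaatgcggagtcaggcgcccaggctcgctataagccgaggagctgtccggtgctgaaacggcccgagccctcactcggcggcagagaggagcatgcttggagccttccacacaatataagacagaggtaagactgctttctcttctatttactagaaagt
Sst, chr11:90461296-90461595, plus strand: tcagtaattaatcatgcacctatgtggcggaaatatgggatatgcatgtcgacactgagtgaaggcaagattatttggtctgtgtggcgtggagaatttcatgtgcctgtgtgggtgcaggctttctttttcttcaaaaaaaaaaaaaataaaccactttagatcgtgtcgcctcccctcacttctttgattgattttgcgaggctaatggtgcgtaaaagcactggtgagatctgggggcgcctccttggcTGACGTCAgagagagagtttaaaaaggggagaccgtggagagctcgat
Vip, chr1:44470230-44470529, plus strand: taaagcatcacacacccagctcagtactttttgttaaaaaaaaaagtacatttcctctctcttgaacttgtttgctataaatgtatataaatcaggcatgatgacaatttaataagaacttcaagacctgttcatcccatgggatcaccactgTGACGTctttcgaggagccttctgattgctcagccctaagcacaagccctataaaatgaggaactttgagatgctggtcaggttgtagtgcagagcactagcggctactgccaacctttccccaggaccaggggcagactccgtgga
Of the 30 genes in both peptide lists, 23 matched a promoter. TGACGTCA was in 5 of them: Scg2 and Sst, which were lower after ligation, and Cartpt, Ucn and Vgf, which were higher. TGACGT was in 9, and TGACTCA, the AP-1 site searched on both strands, was in 1 (Nts), against 4.63% of all promoters. Calca, Tac1 and Gal, which also changed more at L6, matched a promoter and held none of these motifs. The motifs were chosen after the leading genes were known, and a match is a description of the letters, not of a bound site.

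Nociceptors are the pain-sensing small neurons. Of 17 of their receptors, channels and other markers tested, 9 fell and 2 rose in the shared response, with medians of -0.82 at L6 and -0.67 at L5, and the absolute change was larger at L6 in 16. Htr3a, a subunit of the serotonin-gated cation channel, stood at 57.6 and 66.1 in the ligated L6 pools, against 692, 608 and 588 in Naive, Naive+ GPN and Sham. At L5 it stood at 127 and 132 in the ligated pools, against 559, 521 and 439.8 in the unligated pools. Its fall was 3.23 at L6 and 1.91 at L5 (adjusted p = 0.000154 and 0.00101), and its 3 probe sets gave differences of -1.32, -1.96 and -0.70 with unadjusted p of 0.000717, 0.00131 and 0.0276. Scn11a, the voltage-gated sodium channel Nav1.9, stood at 29.3 and 48.2 in ligated L6 pools and 623 to 767 in unligated ones, and at 85.0 and 97.9 in ligated L5 pools and 549 to 624 in unligated ones. It fell by 4.01 at L6 and 2.61 at L5, a difference of -1.40 (unadjusted p = 0.00142, adjusted p = 0.523). Scn10a (Nav1.8) fell by 2.54 and 1.97, and Trpv1, the heat and capsaicin channel, by 1.99 and 1.59. Gfra3 and Gfra1, receptors for GDNF family ligands, rose by 1.01 and 0.78 at L6 and by 0.74 and 0.69 at L5.

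A few other genes of neurons were named for a large value of L6 minus L5 or of the difference. Rgs4, which shortens G-protein signals, fell 6.81-fold at L6 and 2.83-fold at L5, and its 2 probe sets gave differences of -1.26 and -0.93 (unadjusted p = 0.00233 and 0.0099). Grik1, a kainate receptor subunit, fell by 3.51 at L6 and 2.25 at L5. Chrna3, a nicotinic receptor subunit, fell by 2.76 and 1.63. Kcnh6, a potassium channel of the ether-a-go-go family, stood at 4.33 and 11.5 in ligated L6 pools, against 48.5, 55.1 and 47.5 in unligated ones. At L5 it stood at 19.1 and 37.3 in ligated pools and 34.5 to 42.1 in unligated ones, where the groups overlapped. It fell by 2.08 at L6 (adjusted p = 0.00535) and had a change of -0.45 at L5 (adjusted p = 0.262), a difference of -1.63 (unadjusted p = 0.000385, adjusted p = 0.523).

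Many potassium and sodium channel genes fell in the shared response. Of 29 potassium channel genes tested, 15 fell and none rose in the shared response, with medians of -0.66 at L6 and -0.62 at L5. Kcnd3, a channel of the A-type current, fell by 3.48 at L6 and 2.91 at L5. Of 10 sodium channel genes 6 fell, with medians of -0.94 and -0.77. Scn7a and Scn3a of this list were higher at L5 alone, by 0.69 and 0.88 (adjusted p = 0.0368 and 0.0312, limma). At L6 their changes were -0.14 and 0.16 (adjusted p = 0.833 and 0.789). Of 10 calcium channel genes 2 fell and 1 rose, with medians of -0.27 and -0.02; the riser was Cacna2d1, the subunit that gabapentin binds, by 2.40 at L6 and 1.83 at L5 (adjusted p = 0.00446 and 0.00092), with a difference of 0.56 (unadjusted p = 0.176). Of 13 glutamate receptor genes 3 fell, with medians of -0.23 and -0.43, and of 9 GABA receptor genes 1 fell (Gabbr2, by 1.40 at L6 and 1.19 at L5) and 1 rose (Gabra5, by 1.31 and 1.09), with medians of -0.32 and -0.04. Of 29 synaptic vesicle genes 16 fell and 1 rose, with medians of -0.86 and -0.80. The absolute change was larger at L6 in 12 of these 29, against 53.6% of all genes tested. Lin7b of this list fell by 2.41 at L5 (adjusted p = 0.00164, limma) and had a change of -1.28 at L6 (adjusted p = 0.173). The change was larger at L6 in 19 of 29 potassium, 5 of 10 sodium and 7 of 10 calcium channel genes. The same held in 6 of 13 glutamate receptor and 9 of 9 GABA receptor genes.

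Of 19 markers of large myelinated neurons tested, 14 fell and none rose in the shared response (9 were lower at L6 alone and 13 at L5 alone), with medians of -1.04 at L6 and -0.81 at L5. Nefh, the heavy neurofilament chain, stood at 939 and 1318 in ligated L6 pools, against 3295, 3667 and 3571 in unligated ones, and at 1585 and 2036 in ligated L5 pools, against 3018, 3168 and 3295. One probe set gave a difference of -0.84 (unadjusted p = 0.00701), and the second gave -0.10 (unadjusted p = 0.75). Nefm, the medium chain, fell by 1.48 at L6 and 0.82 at L5. Kcna1, a potassium channel gene on this list, went the other way. It fell by 1.19 at L5 (adjusted p = 0.00317, limma) and had a change of -0.44 at L6 (adjusted p = 0.395). The absolute change was larger at L6 in 11 of the 19 genes (57.9%), against 53.6% of all genes tested. Of the 23 general neuronal genes, 9 fell and 1 rose, with medians of -0.46 and -0.26.

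Of 30 regeneration genes tested, 19 rose and 1 fell in the shared response (15 were higher at L6 alone and 19 at L5 alone), with medians of 0.93 at L6 and 0.86 at L5, and the absolute change was larger at L6 in 19. Csrp3, a LIM-domain protein best known from muscle and induced in injured sensory neurons, stood at 228 and 223 in ligated L6 pools, against 15.3, 11.2 and 16.6 in Naive, Naive+ GPN and Sham. At L5 it stood at 129 and 183 in ligated pools, against 22.65, 24.6 and 36.4 in the unligated ones. On this side the unligated level was lower at L6 in all 3 treatments and the ligated level higher at L6 in both. Csrp3 rose by 3.53 at L6 (11.5-fold, adjusted p = 0.0002, limma) and by 2.27 at L5 (4.82-fold, adjusted p = 0.00177), a difference of 1.26 (95% interval 0.58 to 1.94, unadjusted p = 0.00312, adjusted p = 0.539). Atf3, the injury-induced transcription factor, stood at 612 and 698 in ligated L6 pools and 42.1 to 57.5 in unligated ones, and at 446 and 474 in ligated L5 pools and 43.3 to 92.8 in unligated ones. It rose by 3.56 and 2.77, a difference of 0.80 (unadjusted p = 0.0134). Tgm1, a transglutaminase, rose by 3.05 and 2.02, and Gadd45a, a stress-response gene, by 2.40 and 1.70.

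**Figure D3:**
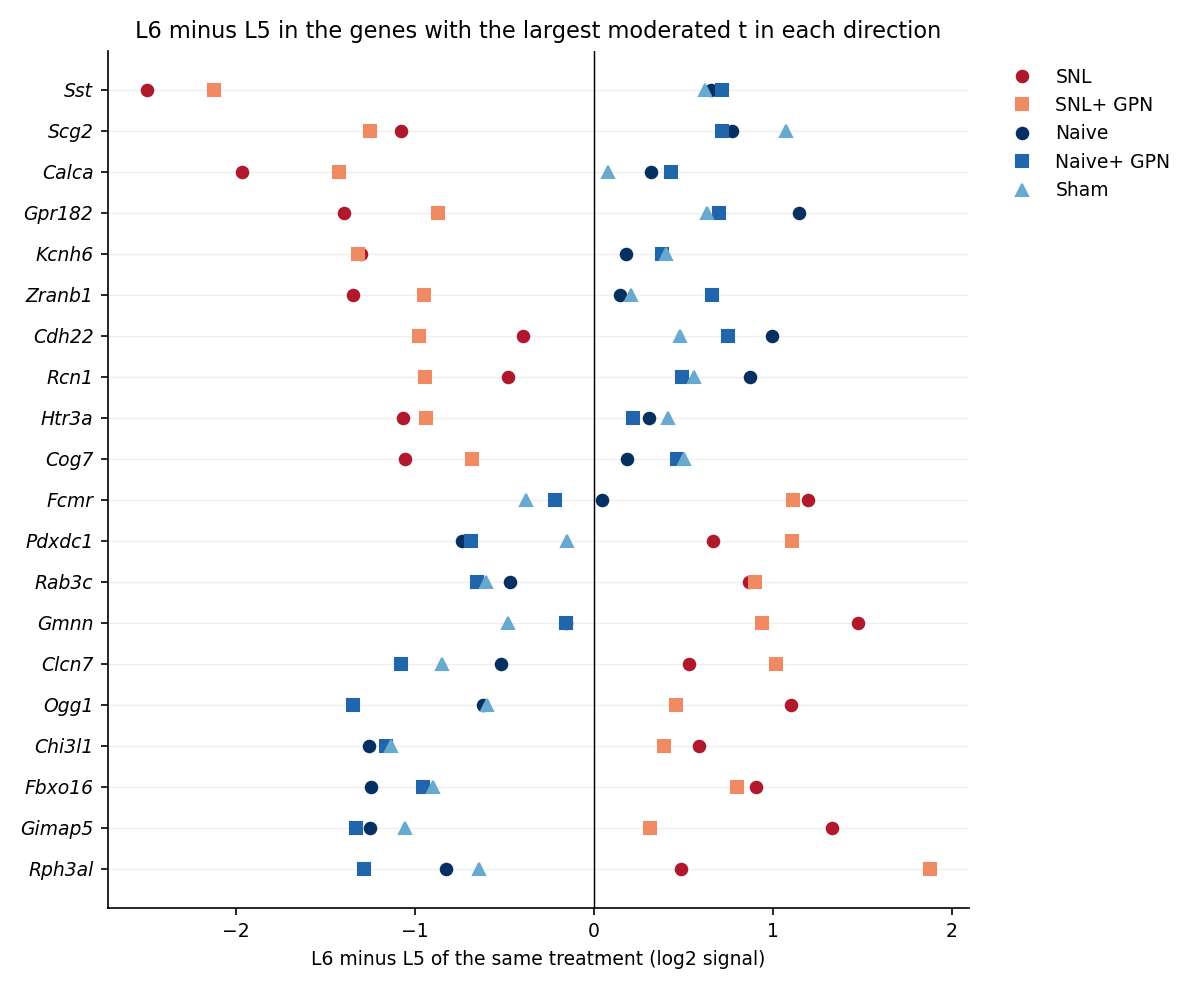
L6 minus L5 within each treatment (x axis, log2 signal) for the 10 genes with the largest moderated t in each direction; each point is 1 treatment, ligated in red and orange and unligated in blue. In every row the ligated points lie on one side of the unligated points. The genes were picked by this same comparison, and 25.8% of all probe sets tested also show no overlap. No gene passed the threshold over all probe sets.

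Genes whose difference was above 0 included some that fell less at L6 than at L5. Rab3c, a vesicle-associated small GTPase, stood at 29.5 and 27.4 in ligated L6 pools, against 61.5, 36.0 and 37.7 in unligated ones. At L5 it stood at 13.55 and 12.0 in ligated pools, against 87.45, 60.0 and 60.3. It fell by 2.00 at L5 (adjusted p = 0.00182) and had a change of -0.54 at L6 (adjusted p = 0.263), a difference of 1.46 (unadjusted p = 0.000135, adjusted p = 0.355). Its second probe set gave a difference of 0.01 (unadjusted p = 0.988). Tesc, a calcium-binding regulator of a sodium-proton exchanger, fell by 1.41 at L6 and 2.52 at L5, a difference of 1.11 (unadjusted p = 0.00238). Chi3l1, a secreted chitinase-like protein, stood at 45.3 and 36.7 in ligated L6 pools and 2.65 to 5.72 in unligated ones, and at 28.7 and 26.9 in ligated L5 pools and 12.6 to 18.4 in unligated ones. Beside Rab3c and Chi3l1 the leading 10 in this direction were Fbxo16, Clcn7, Gimap5, Gmnn, Pdxdc1, Fcmr, Rph3al and Ogg1, with differences of 1.34 to 2.10 and signals of 2.54 to 64.75. In the other direction Gpr182, Rcn1, Cdh22, Cog7 and Zranb1 completed the leading 10 with differences of -1.96 to -1.25. The second probe sets of Gpr182 and Rcn1 gave -0.05 and 0.11.

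Among immune genes the MHC class II list had the largest share of members that rose. Of 11 genes of MHC class II presentation tested, 10 rose and none fell in the shared response, with medians of 2.26 at L6 and 1.81 at L5. RT1-DMb, a chain of the peptide loader, stood at 317 and 229 in ligated L6 pools and 18.6 to 44.0 in unligated ones, and at 192 and 165 in ligated L5 pools and 36.9 to 52.7 in unligated ones. Of 25 macrophage genes, 13 rose and 1 fell, with medians of 1.11 and 0.86, and the absolute change was larger at L6 in 19. Tyrobp, a signalling adaptor of myeloid cells, rose 4.32-fold at L6 and 2.38-fold at L5, whereas Gpnmb, a glycoprotein of macrophages, rose by 1.42 at L6 and 2.12 at L5. Of 22 complement genes 11 rose and 1 fell, with medians of 0.55 and 0.50; C3, the central component, rose by 2.96 and 1.90 and Cd55, which dissociates its convertases, fell by 1.28 at L6 and had a change of -0.58 at L5 (adjusted p = 0.056). Of 16 chemokine and cytokine genes 8 rose, with medians of 0.69 and 0.63, and of 7 lymphoid genes 1 rose, with medians of 0.50 and 0.24. None of these members passed the test of the difference.

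Of 12 satellite glia genes tested, 2 rose and 2 fell in the shared response, the medians were -0.22 at L6 and -0.46 at L5, and the difference was below 0 in 1 of 12, against 45% of all genes tested. Aldoc, a glycolytic enzyme of glia, stood at 568 and 688 in ligated L6 pools and 939 to 1058 in unligated ones, and at 507 and 591 in ligated L5 pools and 1093 to 1113 in unligated L5 pools. Of 15 Schwann cell and myelin genes, 3 rose and 1 fell, with medians of 0.08 and 0.09. Of 33 extracellular matrix genes 17 rose (7 were higher at L6 alone and 13 at L5 alone), with medians of 0.59 at both levels. Of 18 cholesterol synthesis genes 2 fell, with medians of -0.06 and -0.19. Of 9 Hox genes, which mark position along the spine, 1 fell, with medians of -0.31 and -0.07. The absolute change was larger at L6 in 3 of 12 satellite glia and 5 of 15 Schwann cell and myelin genes. The same held in 15 of 33 matrix, 6 of 18 cholesterol synthesis and 6 of 9 Hox genes.

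**Figure D4:**
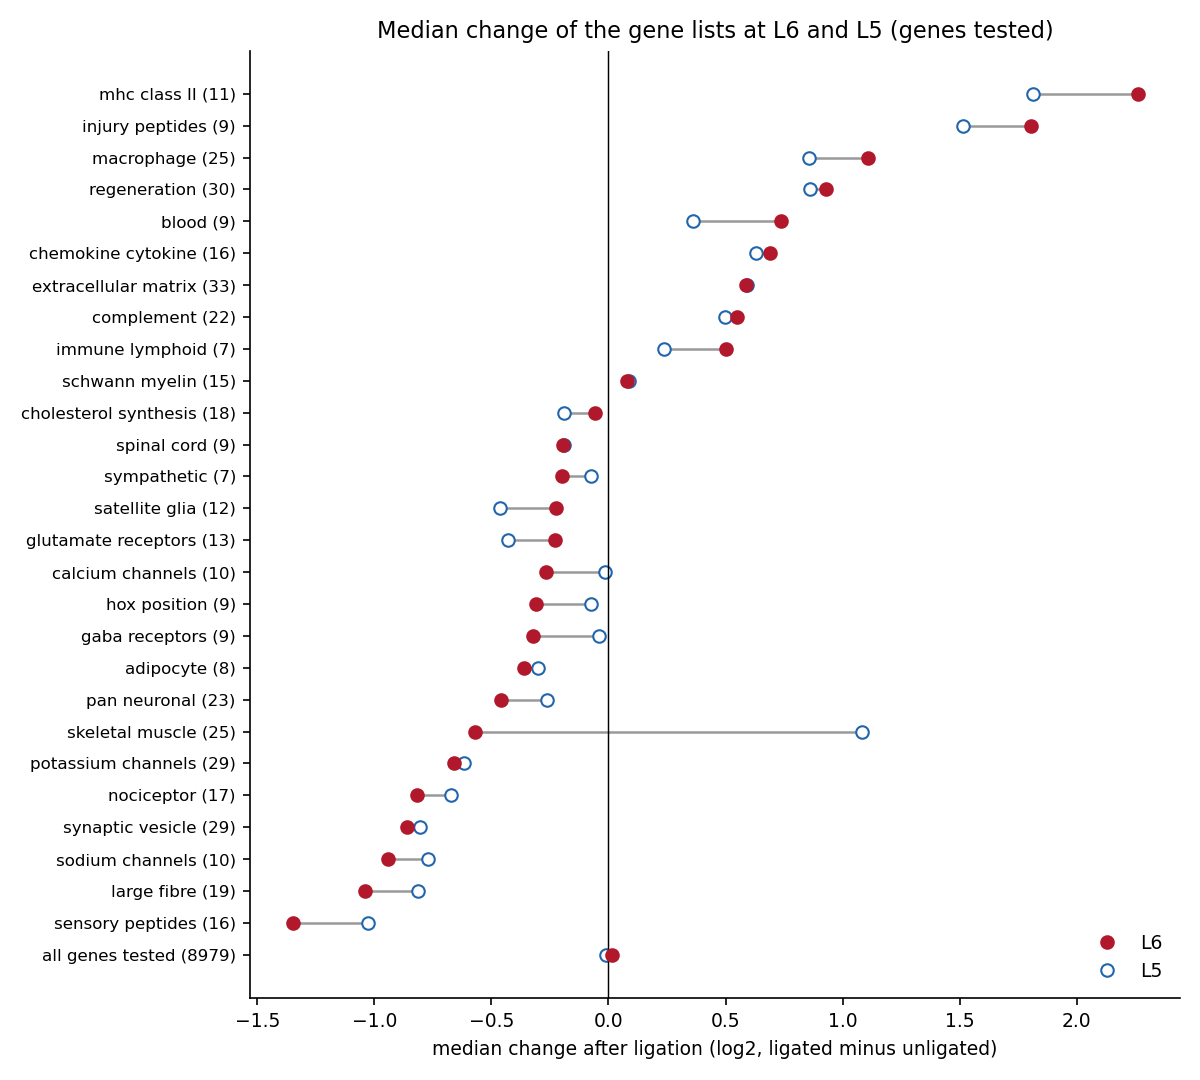
Median log2 change after ligation at L6 (filled) and L5 (open) of each gene list, with the number of genes tested, and of all genes tested. Both levels lie on the same side of 0 for the lists with the largest changes, and skeletal muscle genes are the list with opposite signs and the widest gap.

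Skeletal muscle and blood markers are given because tissue around the ganglion can enter the sample; none passed the test of the difference. The mean log2 signal of 25 muscle markers, Pvalb left out, was 5.18 and 4.70 in ligated and 4.52 to 7.22 in unligated L6 pools. At L5 it was 6.16 and 7.52 in ligated and 4.67 to 6.83 in unligated pools. The 25 muscle genes that passed the filter are not quite the same set, since they include Pvalb. Their median difference was -1.91, with 22 below 0, and 1 of them, Pvalb, fell in the shared response. Pvalb, a calcium-binding protein of muscle and of proprioceptive neurons, is on both the muscle and the large-neuron list: it stood at 595 in the SNL+ GPN pool of L5, against 18.1 to 88.8 in the other ligated samples. With the muscle level as a covariate the differences of Sst, Scg2, Calca and Vip were -3.25, -1.87, -2.39 and 1.71 (adjusted p = 0.761, 0.768, 0.853 and 0.903, limma). The L6 muscle mean lay furthest below the L5 mean in the 2 ligated treatments, so this covariate is partly aligned with ligation. The blood list of 9 genes had medians of 0.74 at L6 and 0.36 at L5, with 2 higher in the shared response. Its mean log2 signal was 10.2 and 9.31 in ligated and 8.76 to 8.98 in unligated L6 pools, and 9.05 and 9.01 in ligated and 8.20 to 8.99 in unligated L5 pools, and its part in the results was not tested. Of 8 fat cell genes 2 fell (medians -0.36 and -0.30), of 9 spinal cord genes 2 fell (-0.20 and -0.19), and of 7 sympathetic genes 1 rose and 1 fell (-0.20 and -0.08).

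Differences between L6 and L5 within the unligated or the ligated pools did not pass the test. No probe set passed for L6 minus L5 in the 3 unligated pairs (0% called by limma, lowest adjusted p 0.821, 981 at an unadjusted p below 0.05) or in the 2 ligated pairs (0%, lowest adjusted p 0.654, 1341 unadjusted). Cdc42se2, a small effector of Cdc42, stood at 6.70, 12.3 and 7.82 in Naive, Naive+ GPN and Sham of L6 and 35.9, 25.5 and 34.1 in those of L5. After ligation the levels were closer, at 103 and 114 in L6 pools and 71.55 and 97.4 in L5 pools. On the opposite side Cdc42se2 was higher at L6 than at L5, as given below. Cd24, a surface glycoprotein, was higher at intact L6 (285 to 456) than at intact L5 (210 to 276) and fell to 109 and 101 in ligated L6 pools and 119 and 115 in ligated L5 pools.

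On the opposite, uninjured side, the SNL, SNL+ GPN and Sham treatments had both levels. Contralateral L6 minus L5 of Scg2 was 0.03, 0.92 and 0.89, so none of these 3 pairs showed the excess of L5 seen on the ligated side. For Sst it was -0.14, -0.04 and 0.77, and for Calca -0.81, -0.23 and 0.30, so the uninjured L6 of SNL rats also lay below L5 for Calca (1097 against 1923). For Vip it was -0.13, 0.19 and -0.15, at signals of 1.65 to 6.18. For Cdc42se2 it was 0.72, 0.42 and 2.57 and for Chi3l1 0.57, 1.10 and 0.15, the reverse of the unligated ipsilateral pairs. For Csrp3 it was -0.70, -0.33 and 0.29, so Sham differed in direction between the sides. For Cd24 it was 0.58, 0.45 and 0.58, the same direction as in the unligated ipsilateral pairs. Contralateral Sst signals lay between 481 and 822 in all 6 samples. The contralateral arrays were normalized apart from the ipsilateral ones, so signals of the opposite sides are not on 1 scale. With 1 unligated pair these values have no test.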

How the data were processed

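The deposited values are linear signal intensity per probe set, made by the authors with MAS5 per the submitters' processing notes, with version and settings not given in the sources used here. The members and the 27 gene lists were chosen with earlier results of these data known. Per array set, the 10 columns were quantile normalized together, a pseudocount (20th percentile of deposited values: 5.8 for A, 4.5 for B and 6.2 for C) was added and log2 taken. The contralateral columns of the treatments with both levels were normalized apart in the same way. Probe sets above the 40th percentile of their array in at least 2 of 10 samples were kept, without 177 controls. limma 3.58.1 in R 4.3.3 (lmFit, eBayes with trend) tested ligated against unligated for L6 minus L5 per treatment, for their mean and for each level, with 3 residual degrees of freedom; the adjusted p-value is Benjamini-Hochberg. Whether the L6 and L5 pools of a treatment held the same rats is not stated.

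Of 26379 probe sets, 18178 carried 1 gene symbol, 391 several and 7633 none; 18122 of the single symbols were matched to a RefSeq gene table of GRCr8 and take its symbol, giving 10969 symbols. For each gene the brightest probe set (mean of log2 over 10 samples) stands in; probe set identifiers are sequence accessions and are left out. Named genes are Sst, Vip, Scg2 and Csrp3; for the difference and for L6 minus L5 without and with ligation, the 10 largest on each side by moderated t, since none passed; up to 4 list members with the largest difference among those passing any test; and other members needed to describe a list. The scripts were tested on simulated data. Alternatives were other normalizations, pseudocounts, filters, no trend, each pool pair left out, gabapentin or muscle level as a covariate, a random block and other probe sets. The number of arrays, 1 pool per treatment and level, limits the precision.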

Additional observations from a re-analysis of the deposited data

How the results depend on the processing

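The labels give no replicate numbers, so ligated and unligated pools were not matched to each other; the difference, the shared response and L6 minus L5 use L6 and L5 of 1 treatment as a pair, and the tests at each level alone do not. The count for the difference was 0 as reported, 4 with the pair as a random block, 3 with a pseudocount 4 times as large, 2 with the filter in all 10 samples and 0 in the other settings. The 65 named differences kept their sign in all 999 alternative values, and 6 crossed the threshold. These genes were markers, leaders by moderated t, or list members with an unadjusted p below 0.05 for the difference (limma). They were thus mostly picked for large values in the same samples, so the kept signs are a description and give no separate support. Among 31 other probe sets of these genes 5 had the opposite sign: Rcn1 (0.11), Gadd45a (-0.12) and 3 of Cd55 (0.53, 0.027 and 0.065). Of 1183 alternative values for 81 shared responses none reversed, 130 lost the call (36 of 73 called genes) and 6 gained it; of 63 other probe sets Cxcl14 (-0.46), Insig1 (0.029), Cyp51 (0.099) and Lipe (0.043) reversed.

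The shared response counted 3199 probe sets, 643 (24.3% higher, against 47.7%) with deposited scaling, and 1060 to 2712 with a pair left out, lowest without SNL; without Naive+ GPN it was 2110 and without SNL+ GPN 2007. Counts for L5 ligation were 744 to 1809 with a pair left out (2596 with all; 744 without SNL, 1287 without Naive+ GPN, 1493 without SNL+ GPN, 1509 without Sham), and L6 ligation 259 to 1383 (1409 with all; 259 without SNL, 588 without SNL+ GPN, 666 without Naive, 830 without Naive+ GPN), 86 with deposited scaling (27.9% higher, against 51.3%) and 902 with the muscle covariate. Of the L5 calls 43.1% were higher, 24.7% with median and 15.8% with deposited scaling; of the shared calls 39% were higher with median scaling. The difference and L6 minus L5 counts were 0 to 0 with a pair left out. Normalizing each level apart shifted L6 minus L5 of all probe sets by a median of -0.31 without and -0.30 with ligation, deposited scaling by -0.40 and -0.37, and deposited scaling shifted the ligation change by -0.28 at L6 and -0.23 at L5. The causes were not tested.

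The median excess at L6 among higher probe sets (0.166) was 0.145 with levels normalized apart, 0.242 with deposited scaling, 0.330 with median scaling, 0.141 and 0.175 with the larger and smaller pseudocounts, 0.178 without the filter, 0.140 with the stricter one, 0.180 without trend, 0.179 with the gabapentin and 0.130 with the muscle covariate, and 0.166 to 0.216 with a pair left out. Among lower ones (0.060) it was 0.129 with deposited scaling, -0.052 with median scaling and 0.055 to 0.149 with a pair left out; without Naive, SNL, SNL+ GPN or Naive+ GPN it was 0.149, 0.145, 0.140 and 0.102. Weak signal limits the depth of falls to near background, as for Sst at L6.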
